A study of Mus musculus with 4 samples.

Results

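The proteasome genes of mouse bone marrow-derived macrophages were taken as every row of the deposited expression table whose symbol begins with Psma to Psmg followed by a digit, which gave 48 of 11111 genes. They comprised 8 alpha and 7 constitutive beta subunits of the core particle, 5 genes of the immunoproteasome and its PA28 cap, 6 ATPases and 11 other subunits of the regulatory particle, 7 assembly factors, and 3 genes for other caps or an inhibitor. The last, Psme3ip1, encodes a protein that binds the cap protein Psme3 and is no subunit; it met the rule by name only. All 4 libraries came from macrophages of C57BL/6 mice, cultured over 7 days (fresh medium from day 4) and then given LPS, a bacterial cell wall component, at 10 ng/ml for 4 hours. Before LPS, cells received either a control morpholino (Ctrl MO, 2 libraries) or morpholinos against Regnase-1 (Reg1-MOs, 2 libraries), each at 2 µM for 24 hours with the delivery peptide Endoporter at 6 µl/ml. Morpholinos are antisense oligomers that block RNA without degrading it, and Regnase-1 is an RNase that destroys inflammatory transcripts and its own mRNA. LPS was common to both groups, so its own effect is not part of the comparison.

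The proteasome is the cell's main protease for ubiquitin-tagged proteins. Its core particle is a barrel of alpha and beta rings in which Psmb5, Psmb6 and Psmb7 carry the chymotrypsin-like, caspase-like and trypsin-like active sites. A regulatory particle of ATPases and other subunits recognises, unfolds and feeds the substrate. In immune cells and under interferon, Psmb8, Psmb9 and Psmb10 replace Psmb5, Psmb6 and Psmb7, in that order, and the PA28 cap made of Psme1 and Psme2 can dock on the barrel, which changes the peptides offered to MHC class I. When proteasome activity falls short, the transcription factor NRF1, encoded by Nfe2l1, raises the genes of the constitutive core and regulatory particles together. It acts through antioxidant response elements (AREs) in promoters, elements that NRF2 (Nfe2l2) also binds.

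The libraries held 23369753 to 25213695 reads in the table, with a median of 404 to 437 reads per gene. Excluding the testis subunit Psma8, the members had means of 72.75 to 10504 reads, so counting error was small for most. No label ties the 2 replicates of a group to different mice or cultures; the p-values below therefore rest on library-to-library spread that may be technical. In the Reg1-MOs libraries Zc3h12a, the Regnase-1 gene, stood at deposited log2 values of 8.65 and 8.57, against 7.48 and 7.55 with Ctrl MO. Its mRNA thus rose, by 1.10 (SE 0.07, limma adjusted p = 0.000401). Regnase-1 protein was not measured, so whether the morpholinos lowered it, raised it or left it unchanged was not tested. All 8 macrophage markers examined were in the table, of which 1 rose (Cd68) and 2 fell (Itgam and Lyz2) by limma. Their levels in normalised reads, which are 2 to the power of the deposited log2 value, summed to 19772.5 and 19755.6 with Ctrl MO and to 17903.4 and 17952.6 with Reg1-MOs. Of 10 stromal markers 9 were in the table and all 9 fell by limma, from a summed 205.0 and 209.7 to 82.7 and 93.9, with none at 0 in any library (at least 11 reads). Of 8 neutrophil markers 7 were in the table and none passed, with sums of 410.5 and 465.5 against 432.4 and 331.4. Of the lymphocyte markers only Ighm was in the table, at 21.0 in each Ctrl MO library against 16.1 and 17.0, and the dendritic cell, mast cell and erythroid lists had no member there. The part of these markers in the proteasome differences was not tested. In bulk RNA, fewer cells of a type and less RNA per cell cannot be told apart.

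The promoters of 5 members are shown, chosen by the calls and by the subunit pairs. Psmd8 and Psmb6 were the members with the largest rises, Psmb5 was the other active-site gene that rose, and Psmb8 and Psmb9 are the immunoproteasome replacements of Psmb5 and Psmb6. Each runs 5′ to 3′ from 250 bases before to 50 bases after a RefSeq start (GRCm38.p6, the mm10 assembly). Capitals mark the ARE core TGACNNNGC in Psmd8, Psmb6 and Psmb5, and the STAT-type element TTCNNNGAA or the interferon-type element (TTTC, any 2 bases, TTTC) in Psmb8 and Psmb9, on either strand, where a match exists.
Psmd8 (chr7:29180624-29180923, minus strand): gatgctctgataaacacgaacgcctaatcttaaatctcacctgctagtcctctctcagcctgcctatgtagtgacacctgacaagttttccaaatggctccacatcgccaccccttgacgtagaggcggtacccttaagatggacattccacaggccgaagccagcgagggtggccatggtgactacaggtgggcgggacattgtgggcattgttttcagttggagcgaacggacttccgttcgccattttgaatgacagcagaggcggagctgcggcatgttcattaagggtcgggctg
Psmb6 (chr11:70525107-70525406, plus strand): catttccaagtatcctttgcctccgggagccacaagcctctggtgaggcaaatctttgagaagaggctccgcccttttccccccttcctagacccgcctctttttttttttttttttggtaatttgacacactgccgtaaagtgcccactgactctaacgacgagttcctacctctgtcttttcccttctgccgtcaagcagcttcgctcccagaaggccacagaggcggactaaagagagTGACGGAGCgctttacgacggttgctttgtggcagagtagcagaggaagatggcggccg
Psmb5 (chr14:54617946-54618245, minus strand): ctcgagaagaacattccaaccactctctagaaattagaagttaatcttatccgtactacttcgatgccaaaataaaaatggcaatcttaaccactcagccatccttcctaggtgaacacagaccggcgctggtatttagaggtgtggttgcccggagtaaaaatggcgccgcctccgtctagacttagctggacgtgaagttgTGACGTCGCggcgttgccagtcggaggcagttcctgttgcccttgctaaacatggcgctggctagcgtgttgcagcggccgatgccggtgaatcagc
Psmb8 (chr17:34197945-34198244, plus strand): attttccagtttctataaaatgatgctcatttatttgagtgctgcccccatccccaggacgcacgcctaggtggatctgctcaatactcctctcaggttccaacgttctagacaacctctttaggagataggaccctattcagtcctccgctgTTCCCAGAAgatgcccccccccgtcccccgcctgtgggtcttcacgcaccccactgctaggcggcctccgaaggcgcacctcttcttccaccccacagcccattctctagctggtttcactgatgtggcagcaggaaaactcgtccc
Psmb9 (chr17:34187281-34187580, minus strand): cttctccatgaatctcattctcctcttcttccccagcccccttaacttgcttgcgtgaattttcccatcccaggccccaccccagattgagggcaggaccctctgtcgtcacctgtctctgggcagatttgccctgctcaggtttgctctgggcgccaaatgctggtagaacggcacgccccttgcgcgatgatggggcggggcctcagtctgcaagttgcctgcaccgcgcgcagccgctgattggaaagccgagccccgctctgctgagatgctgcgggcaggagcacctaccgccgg

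In these windows Psmb6 had 1 ARE core, beginning 9 bases before the start, and Psmb5 had 1 beginning 47 bases before it. Psmd8 had none, Psmb8 had 1 STAT-type element beginning 97 bases before its start, and Psmb9 had neither interferon element. Of the 48 members, 40 had a RefSeq promoter window, and 6 of these 40 (15%) held an ARE core, against 17.3% of the 8966 table genes with a window and 14.0% of all 27025 genes with one. The other 4 were Psmc6, Psmd12, Psmd9 and Psme4. The members with the element had a median log2 fold change of 0.16 and those without it 0.15. Among the 7 members that rose, 2 of 7 had the element. The interferon-type element was found in 5 of the 40 (12.5%), against 4.06% of table genes. Of the 5 immunoproteasome genes only Psme1 had it. The STAT-type element was in 3 of 40 (7.5%), against 8.28%. A match of letters is a description and not a binding site, and motifs of these kinds can overlap others.

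Reg1-MOs libraries had higher levels of most core and regulatory particle transcripts, by small amounts. By limma, 7 of the 48 members rose at the 0.05 threshold on adjusted p (14.6%), against a background of 6.22% of all 11111 genes. They were the regulatory subunit Psmd8 (1.40-fold), the caspase-like subunit Psmb6 (1.39-fold), the assembly chaperone Psmd5 (1.31-fold), the alpha subunits Psma1 (1.31-fold), Psma5 (1.27-fold) and Psma7 (1.26-fold), and the chymotrypsin-like subunit Psmb5 (1.29-fold). No member fell, against a background of 6.03%. At an unadjusted limma p under 0.05 there were 16 members higher and 1 lower, against 1515 and 1748 of all 11111 genes. Limma with voom weights gave the same 7 and 0, against 6.35% and 6.29% of all genes. The 5 immunoproteasome genes did not pass.

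The estimate was above 0 for 40 of 48 members, against 45.6% of all genes, and the members' median log2 fold change was 0.15 against -0.03 over all genes. In 31 members both Reg1-MOs libraries lay above both Ctrl MO libraries, against 27.1% of all genes, and in 2 (Psmb9 and the assembly chaperone Psmg3) they lay below, against 31.8%. The 2 Reg1-MOs libraries did not stand equally high. Replicate 1 was above replicate 2 in 42 of the 48 members, against 48.3% of all genes. The members' median over the Ctrl MO mean was 0.20 in replicate 1 and 0.09 in replicate 2. Ctrl MO replicate 1 was likewise above Ctrl MO replicate 2 in 37 members, against 45.3% of all genes.

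The number of rises depended on single libraries and on the variance model. It was lower when either Ctrl MO library or Reg1-MOs replicate 1 was left out, but not without Reg1-MOs replicate 2. Each of these fits leaves 1 library in a group, and fewer genes rose over the whole table as well. Psmb6 and Psmd8 still rose with either Ctrl MO library left out, and Psmd8 without Reg1-MOs replicate 1. Without a mean-variance trend 0 members rose. The lowest limma adjusted p of a member was then 0.0603, and 1.76% of all genes rose. The members' median was 0.09 without Reg1-MOs replicate 1.

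**Figure D1:**
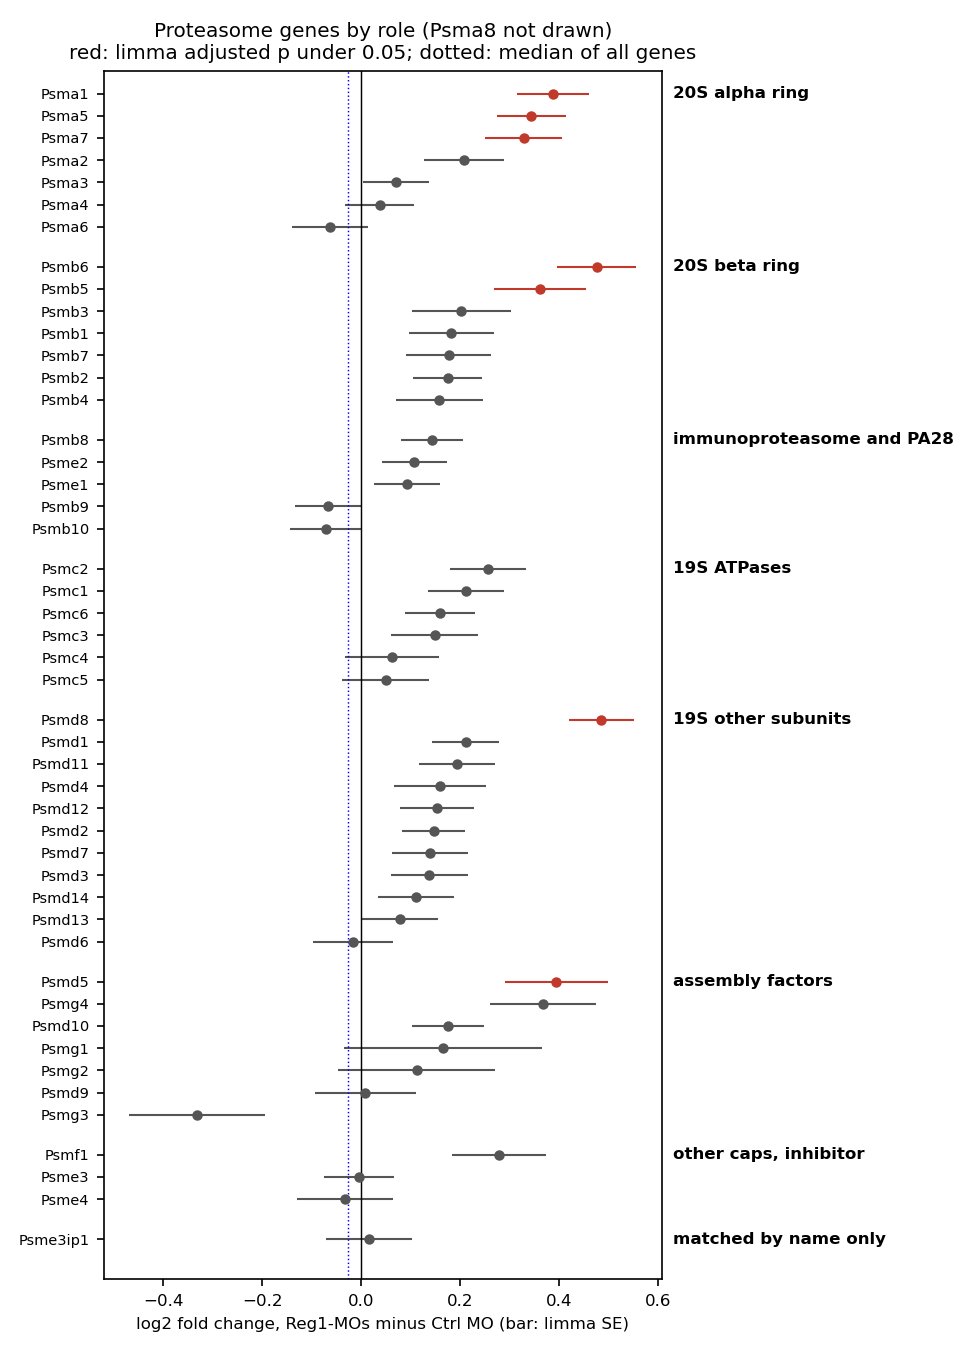
Log2 fold change of each proteasome gene (Reg1-MOs minus Ctrl MO, horizontal axis) with limma's standard error as bars, grouped by role; red points have a limma adjusted p under 0.05 and the dotted line is the median of all genes at -0.03. All 7 constitutive beta genes lie to the right of 0, Psmb9, Psmb10, Psmg3 and Psma6 are among those to the left, and Psma8 (-0.73, SE 0.77) is not drawn.

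The alpha ring is the outer ring through which substrate enters. Of its 8 genes 3 rose and none fell, against 6.22% and 6.03% of all genes. Psma1 (ENSMUSG00000030751; chromosome 7, 114264606 to 114276118 on GRCm38, minus strand) had deposited log2 values of 6.36 and 6.26 in the control libraries against 6.70 and 6.70 in the Reg1-MOs libraries, a difference of 0.39 on the log2 scale (SE 0.07, limma adjusted p = 0.0156). Psma5 (chromosome 3, 108256926 to 108279974, plus strand) stood at 6.96 and 6.94 against 7.34 and 7.25, a difference of 0.34 (SE 0.07, limma adjusted p = 0.0206). Psma7 (chromosome 2, 180036374 to 180042433, minus strand) stood at 6.46 and 6.47 against 6.87 and 6.72, a difference of 0.33 (SE 0.08, limma adjusted p = 0.0359). In these 3 genes each Reg1-MOs library was above each Ctrl MO library. Their calls were lost when either control library or Reg1-MOs replicate 1 was left out, with adjusted p up to 0.192, 0.192 and 0.201 in this order. Of the Psma5 transcript, 76.5% matches the pseudogenes Gm12989 and Gm8394 at 97% identity or more over at least 75 bases, so its reads may have been split or dropped.

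The other alpha genes did not pass. Psma2 stood at 7.34 and 7.30 against 7.62 and 7.44 (0.21, limma adjusted p = 0.136), and rose when Reg1-MOs replicate 2 was left out (0.30, limma adjusted p = 0.0455). Differences were smaller in the others, with Psma3 at 0.07 and Psma4 at 0.04. Psma6, the most abundant alpha gene per length, stood at 8.47 and 8.35 against 8.41 and 8.27, a difference of -0.06 (SE 0.08). Its groups overlapped, unlike those of the 3 genes that rose. Psma8, which replaces Psma7 in germ cells, had 12 and 5 reads against 2 and 9, too few to show a difference (-0.73, SE 0.77).

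All 7 constitutive beta genes had each Reg1-MOs library above each Ctrl MO library, against 27.1% of all genes. Of the 7, 2 passed, while 6.22% of all genes rose. Psmb6 (ENSMUSG00000018286; chromosome 11, 70525367 to 70527858, plus strand) stood at 7.86 and 7.76 in the control libraries against 8.37 and 8.20 in the Reg1-MOs libraries, a difference of 0.48 (SE 0.08, limma adjusted p = 0.0104). Psmb5 (ENSMUSG00000022193; chromosome 14, 54614119 to 54618022, minus strand) stood at 4.82 and 4.80 against 5.25 and 5.09, a difference of 0.36 (SE 0.09, limma adjusted p = 0.0448). The third active-site gene, Psmb7 (chromosome 2, 38588036 to 38644087, minus strand), stood at 6.61 and 6.56 against 6.87 and 6.66, and did not pass (0.18, SE 0.09, limma adjusted p = 0.223). Psmb6 and Psmb5 thus passed and Psmb7 did not, but a difference between these genes was not tested. With the replicate number as a block, a pairing that no label states, all 7 beta genes rose (Psmb7 limma adjusted p = 0.0348). In that fit 13.8% of all genes rose. The 4 beta genes without an active site, Psmb1, Psmb2, Psmb3 and Psmb4, stood between 0.16 and 0.20, with adjusted p of 0.143 to 0.276. The Psmb6 call ended without Reg1-MOs replicate 1 (adjusted p = 0.0603). That of Psmb5 was lost when either control library or Reg1-MOs replicate 1 was left out (adjusted p up to 0.232). Psmb5 shares 88.4% of its transcript with other annotated genes, the pseudogene Gm3375 among them, and Psmb3 shares 80.7%, so the levels of both are uncertain.

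**Figure D2:**
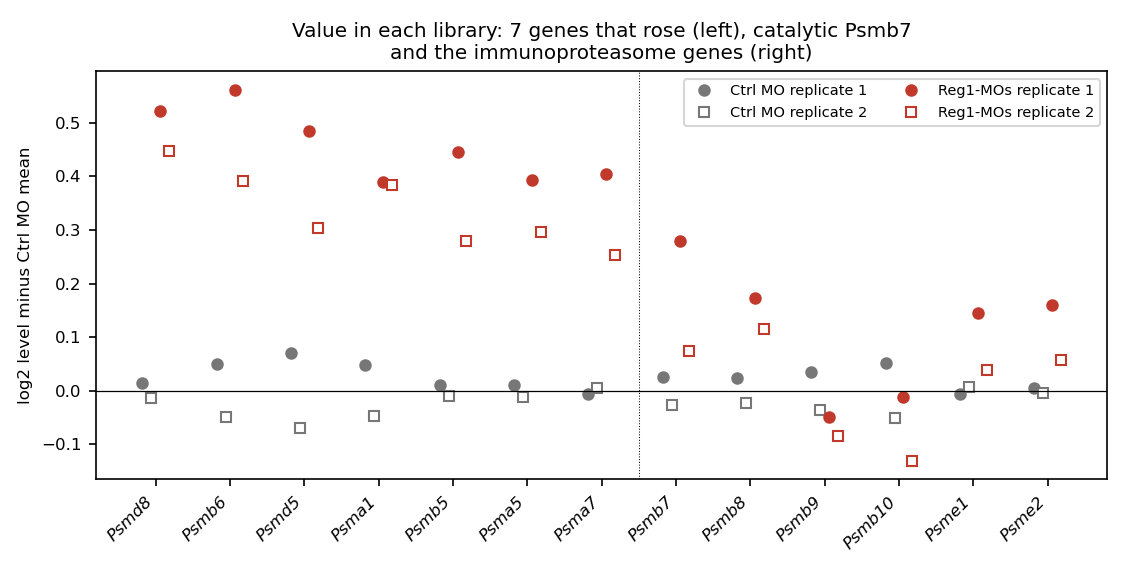
Log2 level in each library minus the Ctrl MO mean of that gene (vertical axis) for the 7 genes that rose, left of the dotted line, and for Psmb7 and the immunoproteasome genes, right of it; filled circles are replicate 1 and open squares replicate 2. Reg1-MOs values of the 7 genes on the left lie clear of the Ctrl MO values, while those of Psmb9 lie below them and those of Psmb10 overlap them.

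None of the 5 immunoproteasome and PA28 genes passed by limma, and none had an unadjusted p under 0.05. Of all 11111 genes, 1515 were higher and 1748 lower at that unadjusted threshold. Limma with voom weights also called none. With the replicate number as a block, a pairing that no label states, Psmb8 alone of the 5 rose (limma adjusted p = 0.0481). In that fit 13.8% of all genes rose. Psmb8 (ENSMUSG00000024338; chromosome 17, 34197721 to 34201454, plus strand) stood at 8.88 and 8.83 in the control libraries against 9.03 and 8.97 in the Reg1-MOs libraries, a difference of 0.14 (SE 0.06, limma adjusted p = 0.177). Psmb9 (ENSMUSG00000096727; chromosome 17, 34181987 to 34187764, minus strand) stood at 7.59 and 7.52 against 7.51 and 7.47, a difference of -0.07 (SE 0.07, adjusted p = 0.544). Psmb10 (ENSMUSG00000031897; chromosome 8, 105935735 to 105938444, minus strand) stood at 8.95 and 8.84 against 8.88 and 8.76, a difference of -0.07 (SE 0.07, adjusted p = 0.551). Psmb8 was thus a little higher in each Reg1-MOs library, Psmb9 a little lower, and the groups overlapped for Psmb10.

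The PA28 genes Psme1 and Psme2 lie 5911 bases apart on chromosome 14. Psme1 (55578123 to 55581529, plus strand) stood at 8.55 and 8.57 against 8.71 and 8.60, a difference of 0.09 (SE 0.07, limma adjusted p = 0.397). Psme2 (55587441 to 55591113, minus strand) stood at 9.07 and 9.06 against 9.23 and 9.12, a difference of 0.11 (SE 0.07, adjusted p = 0.317). Replicate 1 of the Reg1-MOs was the highest of the 4 libraries for each gene. Of the Psme2 transcript 82.5% matches the gene Psme2b, which can have taken some of its reads.

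By their outermost GENCODE ends, Psmb9 starts 211 bases from the start of Tap1. Tap1 encodes a subunit of the transporter that carries proteasome products into the endoplasmic reticulum. On these bounds the neighbours overlap at their 5′ ends, running in opposite directions, and Psmb8 begins 495 bases beyond the end of Tap1. The RefSeq start behind the Psmb9 promoter window lies further inside the gene. Tap1 stood at 10.42 and 10.40 against 10.26 and 10.27, a difference of -0.15 (SE 0.06, limma adjusted p = 0.154), and Tap2, the other subunit, at 0.05 (adjusted p = 0.592). In Psmb9 and Tap1 the Reg1-MOs libraries lay below the Ctrl MO libraries, and neither gene passed. The strand setting of the count is not given in the sources used here, so reads from the overlap cannot be assigned with certainty.

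The balance of the catalytic subunits was lower for the immunoproteasome in each of the 3 pairs. The log2 ratio of Psmb9 to Psmb6 was -0.26 and -0.24 in the control libraries against -0.86 and -0.73 in the Reg1-MOs libraries, a difference of -0.54 between means of -0.25 ± 0.02 and -0.79 ± 0.10 (SD, n = 2 each). For Psmb8 to Psmb5 it was 4.06 and 4.03 against 3.77 and 3.88, a difference of -0.22. For Psmb10 to Psmb7 it was 2.33 and 2.28 against 2.01 and 2.10, a difference of -0.25. The groups did not overlap in any pair, and the exact two-sided permutation test gave p = 0.333 for each, the smallest that 2 against 2 libraries allow. With that limit these differences stand as values only. In the first pair Psmb6 rose, while Psmb9 stood at -0.07.

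**Figure D3:**
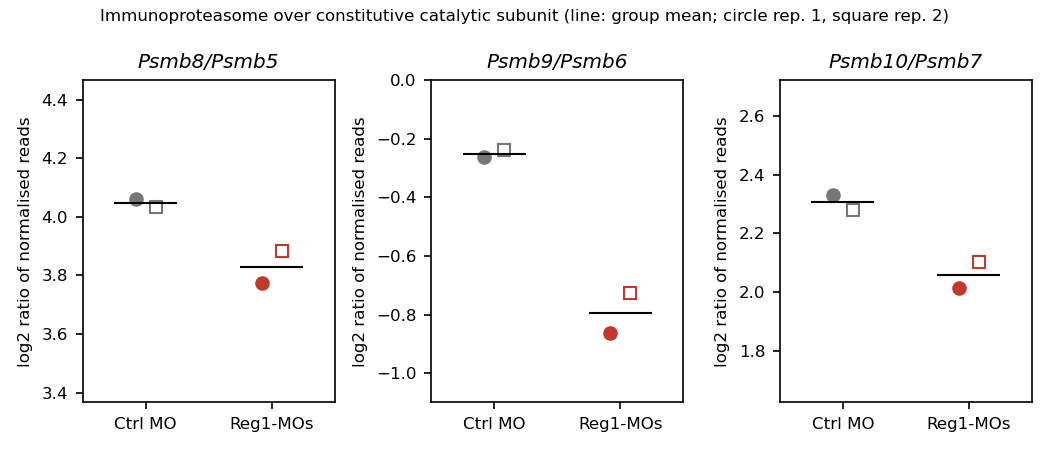
Log2 ratio of normalised reads of an immunoproteasome subunit over the constitutive subunit it replaces (vertical axes, of equal span but not starting at 0) in the Ctrl MO and Reg1-MOs libraries; lines are group means. Reg1-MOs libraries lie below Ctrl MO libraries in the 3 pairs, with the widest gap, -0.54, for Psmb9 over Psmb6.

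Among the 6 ATPases that unfold substrates none passed by limma, and limma with voom weights called none. At an unadjusted limma p under 0.05, 2 were higher (Psmc2 and Psmc1), against 1515 higher and 1748 lower of all 11111 genes. With the replicate number as a block, a pairing that no label states, Psmc2 and Psmc1 rose (limma adjusted p = 0.00182 and 0.0150). In that fit 13.8% of all genes rose. Psmc2 stood at 6.66 and 6.53 against 6.88 and 6.82, a difference of 0.26 (SE 0.08, limma adjusted p = 0.0696). Psmc1 stood at 6.13 and 6.13 against 6.40 and 6.28, a difference of 0.21 (SE 0.08, adjusted p = 0.114), and 45.8% of its transcript matches the pseudogene Gm9575. In these 2 genes and in Psmc6 (0.16) both Reg1-MOs libraries lay above both Ctrl MO libraries, against 27.1% of all genes. The groups overlapped in Psmc3 (0.15), Psmc4 (0.06) and Psmc5 (0.05), and the last 2 stood at -0.06 and -0.05 without Reg1-MOs replicate 1.

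Of the 11 other regulatory subunits Psmd8 alone passed, while 6.22% of all genes rose. Psmd8 encodes a subunit of the lid, the part that removes ubiquitin chains. Psmd8 (ENSMUSG00000030591; chromosome 7, 29174188 to 29180701, minus strand) was counted 3507 and 3435 times in the control libraries and 5068 and 4412 times in the Reg1-MOs libraries, at deposited values of 7.52 and 7.49 against 8.03 and 7.96. It rose by 0.49 (SE 0.07, limma adjusted p = 0.00472). It was the only member whose call held without any 1 of the 4 libraries, with adjusted p up to 0.0371; it was lost without a variance trend (adjusted p = 0.0603).

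Psmd1, a scaffold of the base, stood next at 7.07 and 7.11 against 7.34 and 7.26, a difference of 0.21 (SE 0.07, limma adjusted p = 0.0864). Psmd11 (0.19), the ubiquitin receptor Psmd4 (0.16), Psmd12 (0.15), the scaffold Psmd2 (0.15), Psmd7 (0.14), Psmd3 (0.14) and the deubiquitinase Psmd14 (0.11) lay close together, all with groups that did not overlap. Over all genes, 27.1% had both Reg1-MOs libraries above both Ctrl MO libraries. Psmd13 (0.08) and Psmd6 (-0.02) had overlapping groups, and Psmd6 stood at 0.01 when libraries were scaled to equal totals. A gap between Psmd8 and the rest was not tested.

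Of the 7 assembly factors, 1 rose and none fell, against 6.22% and 6.03% of all genes. Psmd5, a chaperone that holds ATPases until the base is complete, stood at 4.56 and 4.42 against 4.97 and 4.79, a rise of 0.39 (SE 0.10, limma adjusted p = 0.0495). This call ended without any 1 library (adjusted p up to 0.309) and with an offset of 8 reads (adjusted p = 0.0505). The other chaperones of the base, Psmd10 (0.18, adjusted p = 0.159) and Psmd9 (0.01), did not pass.

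The 4 chaperones of the core particle act as 2 pairs, and none of them passed. Psmg4 stood at 3.27 and 3.31 against 3.66 and 3.66, a difference of 0.37 (SE 0.11, limma adjusted p = 0.0653). Its partner Psmg3 stood at 3.27 and 3.02 against 2.85 and 2.77, a difference of -0.33 (SE 0.14, adjusted p = 0.156), from 183 and 154 reads against 139 and 121. In Psmg4 the Reg1-MOs libraries lay above the Ctrl MO libraries and in Psmg3 below. Psmg1 (0.17, SE 0.20) and Psmg2 (0.11, SE 0.16) had overlapping groups and 60 to 138 reads per library, and their standard errors were above those of every member that rose.

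Among the remaining genes, the inhibitor Psmf1 stood at 4.61 and 4.75 against 4.92 and 5.0, a difference of 0.28 (SE 0.09, limma adjusted p = 0.0989). The nuclear cap gene Psme3 stood at 6.55 and 6.61 against 6.56 and 6.59, and Psme4, which encodes the cap PA200, at 7.93 and 8.10 against 7.87 and 8.10. For these caps the groups overlapped, with differences of -0.00 (SE 0.07) and -0.03 (SE 0.10). With equal library totals Psme3 stood at 0.02. Psme3ip1 stood at 0.02 (SE 0.09).

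Summed over each role, normalised reads of the constitutive beta ring were 724.8 and 684.9 in the control libraries against 907.9 and 811.0 in the Reg1-MOs libraries, a ratio of means of 1.22. For the alpha ring they were 1058.2 and 1023.3 against 1186.0 and 1098.3 (1.10), and for the regulatory particle 1746.4 and 1686.4 against 2014.5 and 1880.7 (1.13). The immunoproteasome and PA28 genes summed to 2071.5 and 2012.9 against 2192.7 and 2060.0 (1.04), with Reg1-MOs replicate 2 just below Ctrl MO replicate 1. Summed levels of the alpha ring, the beta ring and the regulatory particle thus did not overlap between groups, and those of the immunoproteasome did.

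**Figure D4:**
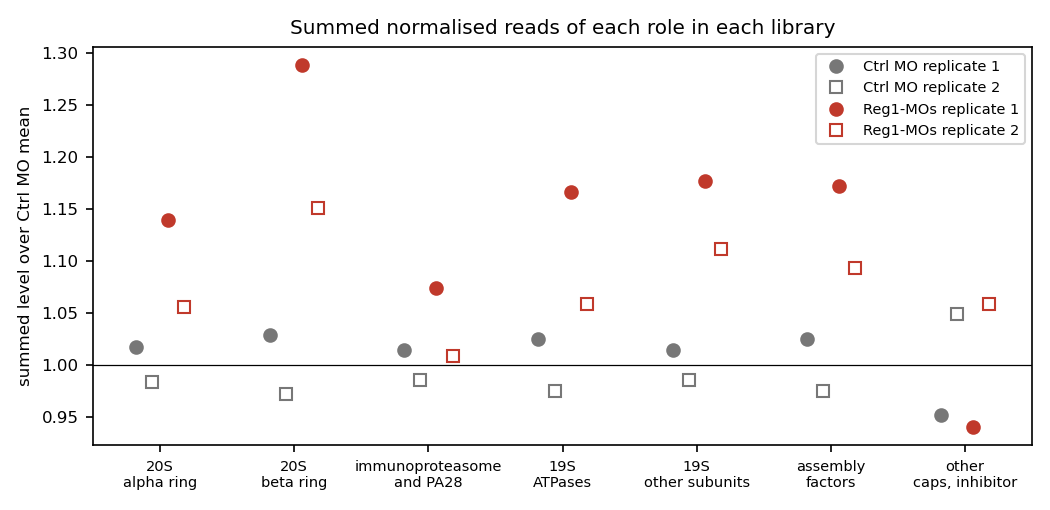
Summed normalised reads of each role divided by the Ctrl MO mean of that role (vertical axis, not starting at 0) in each of the 4 libraries. Reg1-MOs replicate 1 is the highest library in 6 roles, the beta ring has the widest gap between groups (ratio of means 1.22), and the other caps and inhibitor show none (0.999).

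Levels per length, in normalised reads per kilobase of annotated exon, placed 4 of the 5 immunoproteasome genes among the 5 highest members, beside Psma6. With Ctrl MO, Psme2 was at 304 ± 1.5 (SD, n = 2), Psmb10 at 279 ± 14.1, Psme1 at 171 ± 1.18, Psmb8 at 137 ± 3.16 and Psmb9 at 51.4 ± 1.79. Psma6 was at 275 ± 16.2, which did not differ from Psmb10 beyond their spread, and the steps from Psmb10 to Psme1, Psmb8 and Psmb9 were wider than it. Psmb6 was at 120 ± 5.73, while the other constitutive active-site genes Psmb5 (31.2 ± 0.311) and Psmb7 (28.1 ± 0.720) were several-fold lower. Over the longest coding transcript the Ctrl MO means were 281 (Psmb6), 31.2 (Psmb5) and 82.9 (Psmb7). The Psmb5 level is uncertain, since 88.4% of its transcript is shared with other annotated genes. Regulatory subunits ran from 8.96 (Psmd11) to 59.6 (Psmd8), and assembly factors from 2.28 (Psmd9) to 51.8 (Psmd10). Psmd2 (58.0 ± 1.41) was next to Psmd8 (59.6 ± 0.837), a step close to the spread between libraries.

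Per length, Psmb8 exceeded Psmb5 by 4.43 and 4.35 times with Ctrl MO and by 3.64 and 3.92 times with Reg1-MOs. The shared stretches of the Psmb5 transcript make this ratio uncertain too. The ratio of Psmb10 to Psmb7 was 10.1 and 9.75 against 8.10 and 8.61, and that of Psmb9 to Psmb6 was 0.426 and 0.434 against 0.281 and 0.309. Length matters to these levels: over the longest coding transcript in place of all exons, 27 of 48 members stood over 1.5 times higher. On that scale the Ctrl MO ratios were 9.21 and 9.04, 4.45 and 4.30, and 0.491 and 0.501, in the order of the pairs just given. The order of the 5 immunoproteasome genes was the same on either scale.

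**Figure D5:**
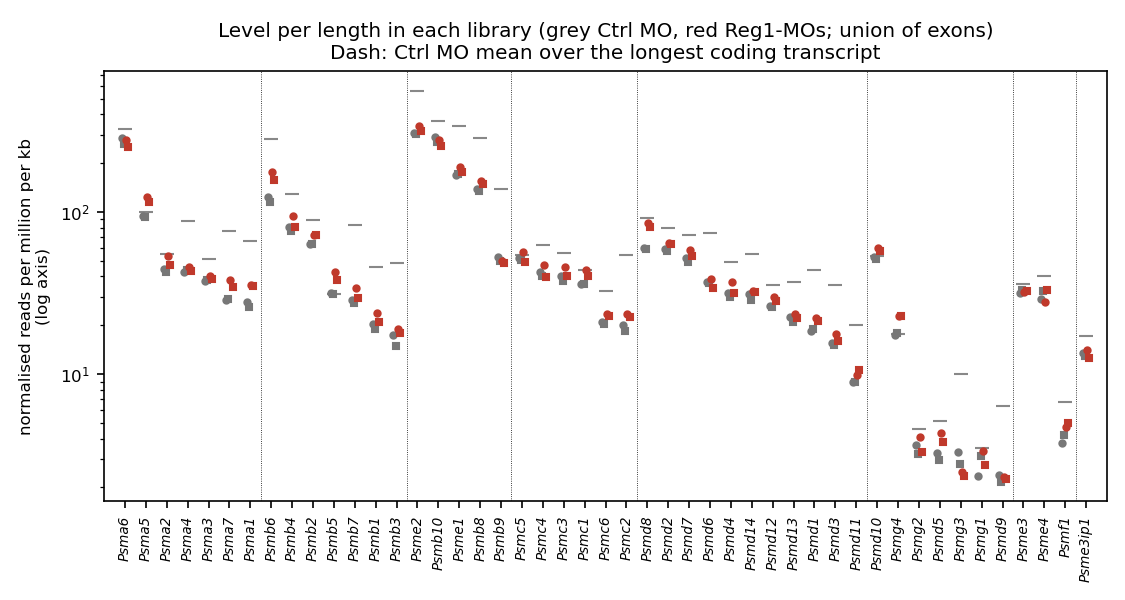
Level per length of each member in each library (vertical log axis, normalised reads per kilobase of exon), by role and then by level; Psma8 is not drawn, grey points are Ctrl MO, red points Reg1-MOs, and dashes the Ctrl MO mean over the longest coding transcript. Psme2 (304) and Psmb10 (279) lie near the top and most assembly factors at the bottom.

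Among 18 measured proteasome-bound proteins 2 rose (11.1%) and 1 fell, against 6.22% and 6.03% of all genes. Txnl1, a thioredoxin-like protein of the regulatory particle, rose by 0.37 (SE 0.07; 6.83 and 6.74 against 7.18 and 7.14, limma adjusted p = 0.0160). Zfand2a, a stress-induced adaptor, rose by 0.44 (SE 0.09, adjusted p = 0.0244), and the ubiquitin ligase Ube3c fell by 0.34 (SE 0.08, adjusted p = 0.0415). The core assembly factor Pomp stood at 0.23 (adjusted p = 0.0693) and the ubiquitin receptor Adrm1 at 0.20 (adjusted p = 0.249). Leaving out 1 library ended the call of Zfand2a in each of the 4 cases (adjusted p up to 0.158), and the calls of Txnl1 (up to 0.198) and Ube3c (up to 0.292) in 3 of them, all but Reg1-MOs replicate 2.

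Nfe2l1, the gene of NRF1, stood at 8.89 and 8.95 against 9.04 and 9.14 and did not pass (0.17, SE 0.07, limma adjusted p = 0.137). It passed with quantile normalization (0.23, limma adjusted p = 0.0474) and with the replicate number as a block (limma adjusted p = 0.0171). No label states that pairing. Of all genes, 7.61% and 13.8% rose in these fits. Nfe2l2 stood at 8.45 and 8.51 against 8.64 and 8.61 (0.14, SE 0.06, adjusted p = 0.176). In each of these genes the Reg1-MOs libraries lay above the Ctrl MO libraries. Of the 7 genes for NRF1 and its processing in the table, 1 fell and none rose, against 6.03% and 6.22% of all genes. The fall was that of Sel1l, a subunit of the ubiquitin ligase complex of the endoplasmic reticulum (-0.41, SE 0.09, adjusted p = 0.0244), and it ended without Ctrl MO replicate 2 (adjusted p = 0.109) or Reg1-MOs replicate 1 (0.0814). Its partner Syvn1 stood at -0.15 (adjusted p = 0.175).

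Of 6 genes for ubiquitin and its activating enzymes, 2 rose and none fell, against 6.22% and 6.03% of all genes. Rps27a, a ubiquitin-ribosomal fusion gene, rose by 0.45 (SE 0.07; 7.41 and 7.37 against 7.91 and 7.76, limma adjusted p = 0.0101), and held without any 1 library (adjusted p up to 0.0499) but not without a variance trend (adjusted p = 0.0846). Ubb rose by 0.31 (SE 0.07, adjusted p = 0.0344), but its call was lost in 3 of the 4 cases, all but Reg1-MOs replicate 1 (up to 0.261). Ubiquitin units are near-identical between these genes, so their reads are hard to assign. None of 12 genes of the p97 segregase and its cofactors, which extract ubiquitinated proteins from complexes, passed by limma. At an unadjusted limma p under 0.05, 2 were higher, against 1515 higher and 1748 lower of all 11111 genes. Limma with voom weights called none. Faf1 stood highest at 0.27 (limma adjusted p = 0.0945), followed in p by Nploc4 (0.16) and Nsfl1c (0.16). With the replicate number as a block, a pairing that no label states, Faf1 and Nploc4 rose (limma adjusted p = 0.0186 and 0.0422). In that fit 13.8% of all genes rose.

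Downstream of the proteasome, 2 of 14 genes of MHC class I presentation rose and 2 fell, against 6.22% and 6.03% of all genes. The class I heavy chain genes H2-K1 (11.57 and 11.52 against 11.92 and 11.94; 0.39, SE 0.06, limma adjusted p = 0.00901) and H2-D1 (12.22 and 12.14 against 12.60 and 12.53; 0.39, SE 0.07, adjusted p = 0.0118) rose. The chaperones of peptide loading Pdia3 (-0.25, SE 0.06, adjusted p = 0.0459) and Calr (-0.24, SE 0.06, adjusted p = 0.0483) fell. With quantile normalization the list had 5 rises and 0 falls, and with equal library totals 4 and 0. Leaving out 1 library ended the H2-K1 call without either control (adjusted p up to 0.133) and the H2-D1 call in all cases but Reg1-MOs replicate 2 (up to 0.164). Pdia3 passed in none of the 4 cases (adjusted p up to 0.453), and the list had no fall in any. Class I heavy chains are near-identical in sequence, so their reads are also hard to assign.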

How the data were processed

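RNA was measured in 4 libraries, 2 per group; groups and replicate numbers came from the sample titles. Libraries were directional, per the labels' protocols. Cutadapt, FastQC, HISAT2 1.6.3 and mm10 were used, per the submitters' processing notes; which tool counted reads, with what strand setting, filter or scaling, is not stated there. A single table of log2 values was deposited by the authors. Each value is log2 of reads plus 0.5, scaled by library, since 100% of values returned whole reads within 0.01, and reads were recovered on that basis. "Normalised reads" are 2 to the power of the deposited value. The table's Reg1-MOs columns are numbered MO1 and MO2, also the names of the 2 morpholinos; they were taken as replicates of 1 group.

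All 11111 genes were fitted with limma 3.58.1 (R 4.3.3) on the deposited values, with a mean-variance trend, two-sided, Benjamini-Hochberg threshold 0.05; 5.47 prior degrees of freedom were added to 2 residual ones. The fit was tested on simulated data. Positions, exon lengths and transcripts came from GENCODE M21 (GRCm38), which held all 48 identifiers, 47 under the same symbol. Shared stretches were found with blastn 2.17.0 (at least 97% identity over 75 bases). Members and gene lists were chosen with earlier results of these data known. Named genes were all members, Nfe2l1, Nfe2l2, Pomp, Adrm1 and Tap1, and the 3 smallest p in each list, of which 1 gene is not reported here; Calr, Tap2 and the cell markers were named after their values were seen. Alternatives were another variance model, 2 scalings, an offset of 8 reads, a minimum mean of 50 reads, voom weights, a replicate block, leaving out each library, and another gene length.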

Additional observations from a re-analysis of the deposited data

How the results depend on the processing

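The 7 members that rose were the same 7 with quantile normalization, equal library totals, voom weights and a minimum mean of 50 reads, which 47 members met, and 6 of them rose with an offset of 8 reads. Without a mean-variance trend 0 members rose, and 195 genes rose and 182 fell in the whole table. The calls of Txnl1, Zfand2a, Ube3c, Sel1l, Rps27a, Ubb, H2-K1, H2-D1 and Pdia3 were lost there too (adjusted p 0.0761 to 0.161). With any 1 library left out, 1 to 7 members rose, 249 to 530 genes rose and 258 to 860 fell. No member fell in any of these settings. The members' median log2 fold change ran from 0.0866 to 0.203 with 1 library left out. With the replicate number as a block (replicate block), though labels state no pairing, 21 members and 1532 genes rose and 1891 genes fell; the 21 held all 7 constitutive beta genes, the ATPases Psmc1 and Psmc2, and Psmb8 (adjusted p = 0.0481) but no other immunoproteasome gene. The differences between replicates 1 and 2 correlated across genes between the groups at r = 0.0958 (all genes) and 0.314 (mean of at least 50 reads), and 2 pairs cannot show that the numbers pair the samples. The difference in each of the 3 catalytic pairs stayed negative in all settings.

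The sign of 11 members changed, none with a call. With 1 library left out, their log2 fold changes ran from -0.132 to 0.00548 (Psma6), -1.75 to 0.298 (Psma8), -0.0574 to 0.181 (Psmc4), -0.0507 to 0.150 (Psmc5), -0.104 to 0.0694 (Psmd6), -0.0595 to 0.0766 (Psmd9), -0.0362 to 0.0284 (Psme3), -0.0647 to 0.0963 (Psme3ip1), -0.151 to 0.0845 (Psme4), -0.0319 to 0.363 (Psmg1) and -0.0425 to 0.267 (Psmg2). With equal library totals they were Psmd6 (0.0056) and Psme3 (0.019). With 1 library left out, the lone sample of a group is assumed to vary like the other group. The cause of these changes was not tested.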
